A study of Mus musculus with 6 samples.

Results

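A group of 3 genes known as markers of germinal center (GC) B cells, Gcet2, Mybl1 and Lmo2, were followed in RNA-Seq of B cells from mouse Peyer's patches, which are lymphoid tissue in the wall of the small intestine. They were found by symbol or synonym (Gcet2 is also called Gcsam) among the 39179 Ensembl genes of the deposited table, and all 3 had a value. These genes were chosen by their known difference between GC and naive B cells in the same pools, so this difference is given as a description and was not tested. In these data Gcet2 and Mybl1 were near absent from naive B cells and high in GC B cells, whereas Lmo2 was high in both and lay above its GC level in naive B cells. At the level of mouse RNA in these pools, Lmo2 thus went against its name as a GC marker. Protein was not measured.

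GC B cells (Fas+ GL7+) and resting, here called naive, B cells (Fas- GL7-) were sorted from ileal Peyer's patches of WT C57BL/6 females aged 12 weeks. Each population was measured in 3 pools of littermate mice, with no treatment in either population. A pool hides the spread between mice, and in bulk RNA fewer cells of a type and less RNA per cell cannot be told apart. Levels are given as TPM, that is, as the deposited FPKM rescaled so that every pool sums to 1000000. The files hold no counts, and the steps between low values gave an approximate depth of 9750000 to 16200000 reads per pool, with 65.0% to 71.0% of these values within 0.15 of a whole number of reads. Fas, whose protein was a gate of the sort, stood at 114 ± 5.55 TPM in GC against 3.22 ± 0.314 TPM in naive B cells (SD, n = 3). The B cell markers Cd79a, Cd79b, Ms4a1 and Pax5 summed to 3317 to 3361 TPM in GC pools and 4933 to 5008 TPM in naive pools. By mean, Cd79a (1077 TPM in GC against 2349 TPM in naive B cells), Cd79b and Pax5 were lower in GC. Ms4a1 was higher in GC (931 against 717 TPM).

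GCET2 is an adaptor of the inner cell membrane that is phosphorylated after B cell receptor engagement, binds the kinase SYK, and restrains B cell movement through the GTPase RHOA. MYBL1, or A-MYB, is a DNA-binding transcription factor of the MYB family, best known from the GC and from male meiosis. LMO2 is made of LIM domains, does not bind DNA by itself, and bridges E proteins and related factors to the scaffold LDB1. It is essential for blood stem cells, is switched on wrongly in T cell leukemia, and is used in pathology as a marker of GC-derived human lymphomas. Gcet2 (ENSMUSG00000022659) lies at chr16:45610440-45622867, Mybl1 (ENSMUSG00000025912) at chr1:9667407-9700439, and Lmo2 (ENSMUSG00000032698) at chr2:103957903-103981878. These are whole-gene positions of RefSeq in GRCm38.p6. The methods name the transcriptome used for alignment as NCBIm38 v75, without a patch number.

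The promoter of Gcet2 is the only one shown for a member, because the promoter set used held none for Mybl1 or Lmo2. Beside it are the promoters of Rgs13, the gene whose pattern was closest to that of Mybl1, and of Mybl2, a paralog of Mybl1. Each stretch is the 250 bases before the RefSeq start in GRCm38.p6, written 5′ to 3′ on the strand of the gene. They lie at chr16:45610190-45610439 (plus strand) for Gcet2, chr1:144177373-144177622 (minus strand) for Rgs13, and chr2:163054385-163054634 (plus strand) for Mybl2. Capitals mark matches to the MYB motif (TAACNG or CAACNG, either strand).
Gcet2: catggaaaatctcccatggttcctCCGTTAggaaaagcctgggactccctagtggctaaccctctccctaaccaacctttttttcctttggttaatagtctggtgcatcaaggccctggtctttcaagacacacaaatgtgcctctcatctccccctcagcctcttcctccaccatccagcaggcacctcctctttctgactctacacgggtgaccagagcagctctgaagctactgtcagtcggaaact
Rgs13: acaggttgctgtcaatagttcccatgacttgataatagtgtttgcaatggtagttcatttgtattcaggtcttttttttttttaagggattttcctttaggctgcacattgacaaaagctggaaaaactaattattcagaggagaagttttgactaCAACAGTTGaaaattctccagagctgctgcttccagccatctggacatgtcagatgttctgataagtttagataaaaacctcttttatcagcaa
Mybl2: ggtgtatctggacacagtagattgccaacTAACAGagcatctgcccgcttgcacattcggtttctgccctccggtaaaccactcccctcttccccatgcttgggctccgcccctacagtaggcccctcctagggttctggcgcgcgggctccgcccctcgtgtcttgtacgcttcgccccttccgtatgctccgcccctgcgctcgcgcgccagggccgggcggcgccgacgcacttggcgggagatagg
Gcet2 and Mybl2 held a single match, starting 226 and 221 bases before the start, and Rgs13 held 2 matches, starting 94 and 91 bases before the start, which overlap each other. Of 32851 RefSeq promoters of this length, 43.1% held the motif, so a match is common and says nothing of binding. An E box (CAGGTG or CAGCTG, in 27.7% of promoters), the CCAAT box (CCAAT, 33.8%), the cell cycle element known as CHR (TTTGAA, 16.0%) and the octamer (ATTTGCAT, 1.60%) had no match in these 3 windows on either strand.

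In GC replicates 1, 2 and 3, Gcet2 was at 286, 280.2 and 279 TPM. In naive replicates 1, 2 and 3 it was at 0.257, 0.315 and 0.168 TPM. All GC pools were within a few percent of each other and none came near a naive pool. The means were 282 ± 3.38 TPM in GC against 0.246 ± 0.0740 TPM in naive B cells (SD, n = 3), so the naive level was 0.0875% of the GC level. At the median length of its annotated transcripts, the naive values correspond to about 7.0, 11.7 and 4.0 reads, so they are imprecise. On the log2(TPM + 1) scale the difference was 7.83, and of 12785 genes in the fit 1 had a larger one.

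In GC replicates 1, 2 and 3, Mybl1 reached 237, 255 and 245 TPM. It was at 1.66, 1.05 and 0.697 TPM in naive replicates 1, 2 and 3. Again the populations did not overlap, and the naive pools differed more among themselves than the GC pools. The means were 245 ± 8.85 TPM and 1.14 ± 0.487 TPM (SD, n = 3), which puts the naive level at 0.463% of the GC level. At the median length of its annotated transcripts, the naive values correspond to about 31.9, 27.4 and 11.6 reads. At the longest transcript they correspond to about 69.7, 59.9 and 25.3 reads. The log2(TPM + 1) difference was 6.87, and 10 genes had a larger one.

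Lmo2 ran the other way. GC replicates 1, 2 and 3 held 200.3, 186 and 201 TPM, and naive replicates 1, 2 and 3 held 330.2, 372 and 343 TPM. The lowest naive pool was above the highest GC pool. The means were 196 ± 8.49 TPM in GC against 349 ± 21.6 TPM in naive B cells (SD, n = 3), a naive level 1.78 times the GC level. Its log2(TPM + 1) difference, GC minus naive, was -0.83, and 1956 of the 12785 genes had a lower one. Lmo2 was thus among the well-expressed genes of both populations, with 717 to 796 genes above it in GC pools and 328 to 371 genes above it in naive pools.

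**Figure D1:**
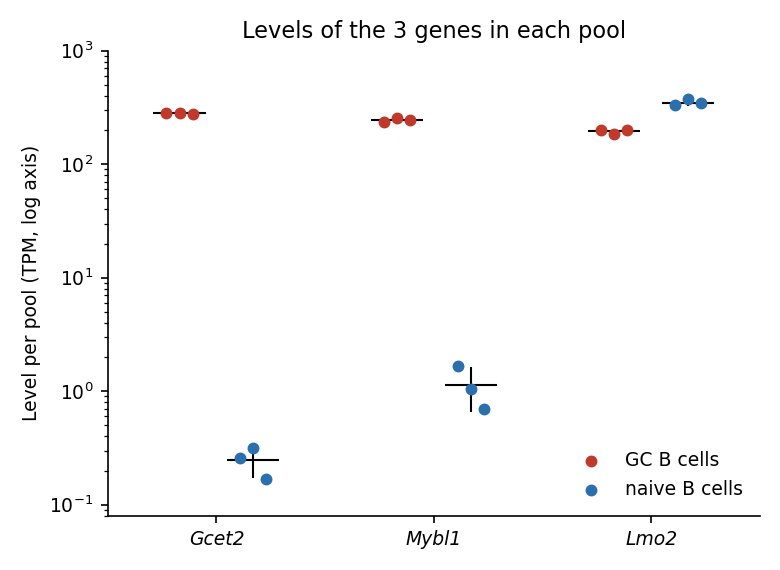
Level of Gcet2, Mybl1 and Lmo2 in each pool (TPM, log axis), in GC (red) and naive (blue) B cells; points are pools, horizontal lines the mean of 3 pools and vertical lines the SD. Gcet2 and Mybl1 lie at 237 TPM or more in GC pools and at 1.66 TPM or less in naive pools, while Lmo2 lies between 186 and 372 TPM everywhere and is higher in naive pools.

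Within GC B cells the order was Gcet2, Mybl1, Lmo2, and neighbours in this order did not overlap in any pool. In naive B cells the order was reversed to Lmo2, Mybl1, Gcet2, again without overlap between neighbours. The coefficient of variation among GC pools was 1.2% for Gcet2, 3.61% for Mybl1 and 4.34% for Lmo2, against a median of 3.84% over the 1389 genes between 100 and 500 TPM. Among naive pools it was 6.20% for Lmo2 (median 5.89% over 1242 genes of that range), 42.8% for Mybl1 (median 18.6% over 4104 genes between 1 and 10 TPM), and 30.0% for Gcet2 (median 61.6% over 3911 genes between 0.1 and 1 TPM). Gcet2 and Mybl1 passed the filter of the fit, at least 1 TPM in at least 3 pools, through their GC pools.

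Low levels in naive pools were set beside those of the other GC B cell markers, as the naive mean in percent of the GC mean. Gcet2 (0.0875%) stood near Nuggc, a nuclear GTPase gene of GC B cells (0.148%). Mybl1 (0.463%) stood between Rgs13, a regulator of chemokine receptor signaling (0.415%), and Mef2b, a transcription factor gene (0.570%). S1pr2, the receptor that keeps B cells in the GC, was at 0.295%. Fas was at 2.82% and Bcl6, the transcriptional repressor that defines the GC program, at 19.7%. Over the 8 markers that are reported here and were called higher in GC, the naive mean ranged from 0.148% to 19.7% of the GC mean. Gcet2 lay under this range and Mybl1 in its lower part. The Mef2b mean rests on naive replicate 3, at 5.65 TPM, against 0.122 and 0 TPM in naive replicates 1 and 2. The place of Mef2b relative to Gcet2 and Mybl1 is therefore uncertain.

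**Figure D2:**
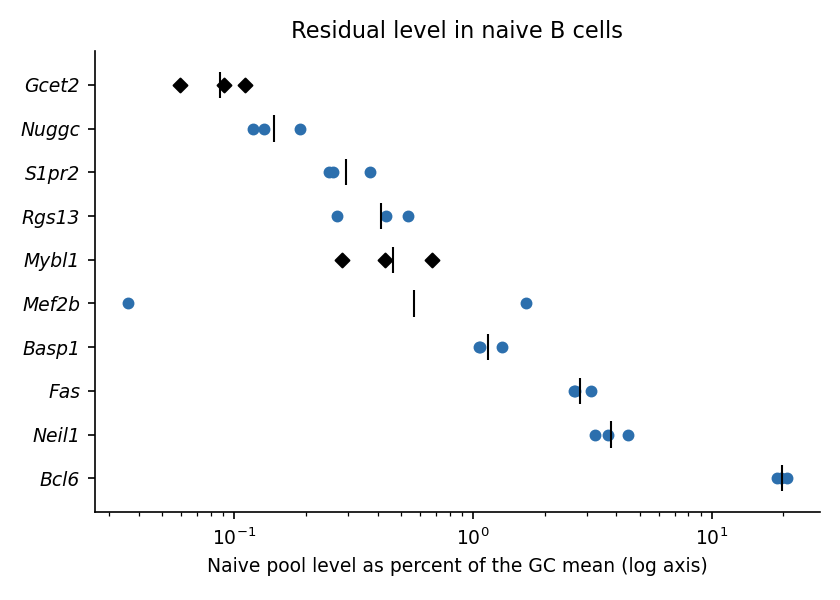
Level of each naive pool in percent of the GC mean (log axis) for Gcet2 and Mybl1 (diamonds) and for 8 GC B cell markers (circles); ticks are the naive mean, and 1 naive pool of Mef2b listed at 0 is not drawn. Gcet2 has the lowest naive mean drawn, 0.0875% of its GC level, and Mybl1 is at 0.463%. The Mef2b mean rests on naive replicate 3. Cd83 and Cxcr4, at 226% and 98.6%, are not drawn.

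Genes around the 3 members were tested in a fit over all 12785 genes with limma, at a Benjamini-Hochberg adjusted p under 0.05. Differences between these populations were widespread. Of all genes tested, 65.6% were called, 35.5% as higher in GC and 30.1% as higher in naive B cells, and the pools of both populations did not overlap in 70.7%. The median log2 difference over all genes was 0.03. The gene lists below are read against these shares. A tested gene under 1 TPM in all pools of 1 population passed the filter through the other, which fixed its direction.

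Mybl1 has a pair of paralogs, Mybl2 (B-MYB), which drives mitotic genes in dividing cells, and Myb (c-MYB), a factor of blood progenitors. Mybl2 was at 107, 122 and 111 TPM in GC and 3.78, 5.72 and 3.33 TPM in naive replicates 1, 2 and 3. It was 26.5 times higher in GC (log2 difference 4.46 ± 0.17 SE, adjusted p = 2.22e-06 in limma). Myb was at 9.88 ± 0.532 TPM in GC against 1.13 ± 0.0161 TPM in naive B cells (SD, n = 3), with a log2 difference of 2.35 ± 0.10 SE (adjusted p = 3.96e-06 in limma). All 3 MYB genes were therefore higher in GC B cells, but their proportions differed. In TPM, which are per length, Mybl1 made up 66.6% ± 0.598 of the family in GC pools and 17.4% ± 6.87 in naive pools (SD, n = 3). Mybl2 made up 30.7% ± 0.725 in GC and 64.8% ± 7.29 in naive pools. The family summed to 354 to 386 TPM in GC pools and only 5.15 to 7.92 TPM in naive pools.

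**Figure D3:**
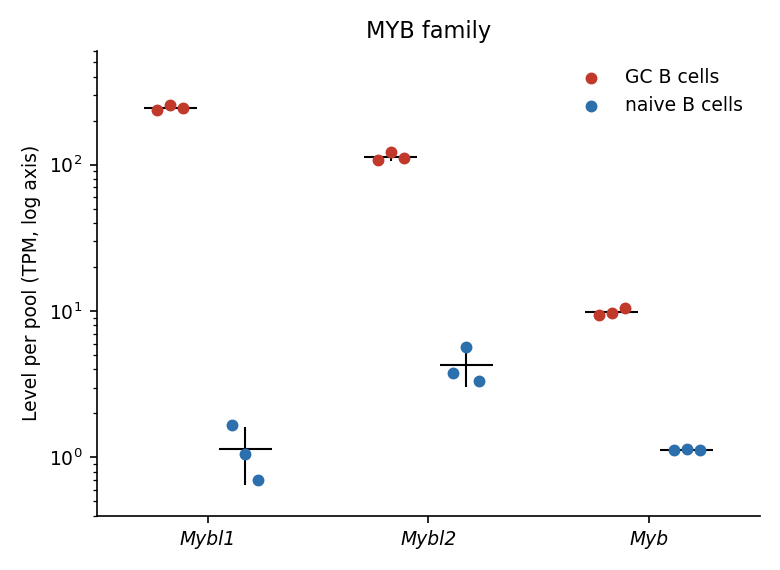
Level of Mybl1, Mybl2 and Myb in each pool (TPM, log axis), in GC (red) and naive (blue) B cells; points are pools, horizontal lines the mean of 3 pools and vertical lines the SD. Mybl1 is the highest of the family in GC pools, and Mybl2 is the highest in naive pools.

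B-MYB works with the MuvB core complex, which also forms the repressor DREAM with E2F4 and the pocket proteins, and with FOXM1 later in the cell cycle. Of 14 genes of this list, the paralogs included, 10 were higher in GC, 1 was higher in naive B cells and 3 were not called. The median log2 difference was 0.73. Foxm1 rose 24.2 times (4.29 ± 0.13 SE, adjusted p = 1.01e-06 in limma), from 3.88 ± 0.821 to 93.7 ± 3.59 TPM (SD, n = 3). Tfdp1, the partner of E2F factors, rose 12.9 times (3.60 ± 0.06 SE, adjusted p = 1.38e-07 in limma). Rbl2, which encodes the pocket protein p130 of resting cells, was the gene that fell, from 36.1 ± 1.05 to 25.4 ± 2.61 TPM (SD, n = 3; log2 difference -0.49 ± 0.08 SE, adjusted p = 0.00225 in limma). All 20 mitotic genes under B-MYB and MuvB control were higher in GC B cells, with a median log2 difference of 5.02. The largest differences among them were those of Ube2c (6.25), Top2a (6.22) and Ccna2 (6.06), a ubiquitin-conjugating enzyme, a topoisomerase and a cyclin of dividing cells. Bub1, Cenpe, Cenpf, Ttk and Cdc25c were under 1 TPM in all naive pools and passed the filter through GC pools alone. Ube2c, Ccna2, Kif20a, Kif23 and Nusap1 had at least 1 naive pool under 1 TPM and also needed GC pools to pass.

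In the testis, MYBL1 switches on genes of meiosis and of the piRNA pathway. Of 16 such genes, 12 were below the filter, and 6 of these, among them Piwil1, Mael and Sycp3, were listed at 0 in all 6 pools. The other 4 were higher in GC B cells. Mns1, which encodes a structural protein of sperm and cilia, rose from 3.38 ± 0.505 to 40.2 ± 3.31 TPM (SD, n = 3; log2 difference 3.24 ± 0.12 SE, adjusted p = 1.79e-06 in limma). Ddx39a (0.79), Cul3 (0.63) and Tdrd3 (0.60) had smaller log2 differences. Ddx39a, an RNA helicase gene, and Cul3, a ubiquitin ligase gene, are used by many cell types. Below the filter, Pld6 (0.948 against 0.0936 TPM) and Tdrd9 (0.374 against 0 TPM) had higher means in GC than in naive pools. Ddx4 was near equal (0.227 against 0.210 TPM). Tdrd5, Tdrd6 and Asz1 were at 0 in all GC pools and at most 0.0675 TPM in naive pools. Without a filter, 6 genes of this list were called higher in GC.

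Lmo2 is the leading gene of a small family. Lmo1 was listed at 0 in all 6 pools, and Lmo3 reached at most 0.321 TPM. Lmo4, also a bridging factor with LIM domains, was at 44.9, 43.1 and 38.7 TPM in GC and 33.6, 33.3 and 27.5 TPM in naive replicates 1, 2 and 3. It was higher in GC (log2 difference 0.42 ± 0.10 SE, adjusted p = 0.0105 in limma), the opposite direction to Lmo2. The Lmo2 level was 4.66 ± 0.469 times that of Lmo4 in GC pools and 11.2 ± 1.34 times in naive pools (SD, n = 3).

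The scaffold of the complex moved in the direction of Lmo2. Ldb1 was at 140.4, 130.5 and 129.7 TPM in GC and 304, 315 and 281 TPM in naive replicates 1, 2 and 3. It was 2.25 times higher in naive B cells (log2 difference -1.16 ± 0.06 SE, adjusted p = 7.88e-06 in limma). The Lmo2 level was 1.47 ± 0.0711 times that of Ldb1 in GC and 1.16 ± 0.0693 times in naive pools (SD, n = 3), and the ratio was at most 1.55 in any pool. Lyl1, which encodes a basic helix-loop-helix partner of LMO2, was also higher in naive B cells, with 218 ± 3.58 TPM against 156 ± 1.58 TPM in GC (SD, n = 3; log2 difference -0.48 ± 0.04 SE, adjusted p = 4.92e-05 in limma). Its relative Tal1, and Gata1 and Gata2, partners of LMO2 in red blood cell precursors, were listed at 0 in all 6 pools.

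Other parts of the complex were higher in GC B cells. Ssbp3, which encodes a single-stranded DNA-binding protein that stabilizes LDB1, was at 139.5, 133 and 153 TPM in GC and 12.7, 13.3 and 12.1 TPM in naive replicates 1, 2 and 3. It rose 11.2 times (log2 difference 3.38 ± 0.07 SE, adjusted p = 2.81e-07 in limma). Its relative Ssbp2 fell, with 24.2 ± 3.14 TPM in naive and 14.8 ± 1.42 TPM in GC B cells (SD, n = 3; -0.67 ± 0.12 SE, adjusted p = 0.00282 in limma). Ssbp3 thus held 59.1% ± 2.26 of the summed Ssbp2, Ssbp3 and Ssbp4 level in GC and 15.1% ± 0.366 in naive pools (SD, n = 3). The E protein genes Tcf3 and Tcf4, whose products LMO2 complexes contain, rose 2.17 and 2.19 times (log2 differences 1.11 and 1.12, adjusted p = 1.77e-06 and 8.75e-05 in limma), while Tcf12 fell by 0.37 on the log2 scale (adjusted p = 0.0143 in limma). Over the list of 17 genes, 9 were tested, of which 5 were higher in GC and 4 in naive B cells, and 5 genes were listed at 0 in all pools.

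**Figure D4:**
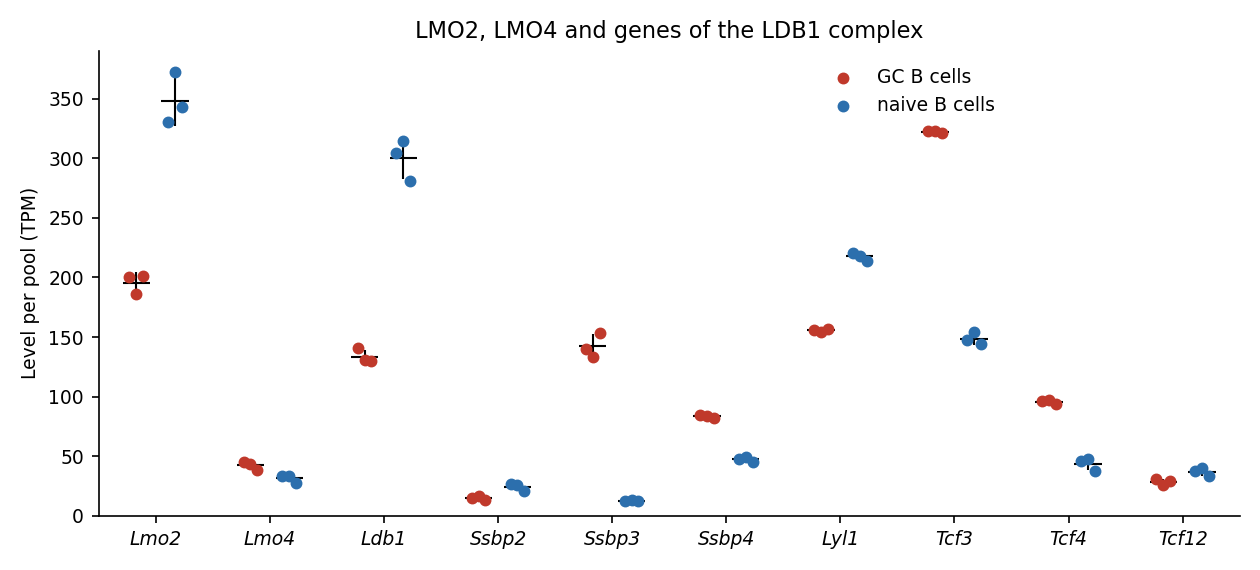
Level per pool (TPM, linear axis from 0) of Lmo2, Lmo4 and 8 genes of the LDB1 complex in GC (red) and naive (blue) B cells; points are pools, horizontal lines the mean of 3 pools and vertical lines the SD. Lmo2, Ldb1 and Lyl1 are higher in naive pools, and Ssbp3 and Tcf3 are higher in GC pools.

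Lmo2 is also expressed by endothelial, myeloid and erythroid cells, so markers of these and other cell types were read beside it. Of 5 endothelial markers, Pecam1, which B cells also express, was called and higher in naive B cells. The other 4, among which Kdr was listed at 0 in all 6 pools, summed to 0.180 to 0.634 TPM in GC and 0.602 to 1.05 TPM in naive pools. The 4 erythroid and progenitor markers summed to 1.58 to 11.1 TPM in GC and 0.917 to 12.1 TPM in naive pools, and none was called. The 5 myeloid markers summed to 0.836 to 2.31 TPM in GC and 3.96 to 7.07 TPM in naive pools, with Cd14 at 0 in all GC pools. Only Lyz2 passed the filter, and it was not called (3.30 TPM in naive against 1.28 TPM in GC B cells, adjusted p = 0.0618 in limma). Below the filter, Itgam (1.02 against 0.106 TPM) and Adgre1 (0.696 against 0.0461 TPM) had higher means in naive than in GC pools. Csf1r was near equal (0.179 against 0.153 TPM). The 6 markers of intestinal epithelium summed to 23.5 to 42.5 TPM in GC and 51.2 to 74.8 TPM in naive pools. Of these, Epcam, Krt8, Krt20 and Vil1 were higher in naive B cells, Krt18 was higher in GC B cells, and Cdh1 was below the filter. The calls of Epcam, Krt18, Krt20 and Vil1 were lost when single pools were left out. The part of myeloid and epithelial RNA in the Lmo2 difference was not tested. The 7 T and NK cell markers, read because such cells can express Mybl1, summed to 1.65 to 3.51 TPM in GC and 1.72 to 2.46 TPM in naive pools, with Ncr1 at 0 throughout. The 4 follicular dendritic and stromal markers stayed at 8.39 to 9.48 TPM in GC and 5.37 to 6.47 TPM in naive pools, with Pdpn at 0, and Mfge8 was the marker called, as higher in GC. Plasma cell markers summed to 766 to 801 TPM in GC and 140.0 to 173 TPM in naive pools, with 2 of 4 higher in each population. Most of the GC sum was Jchain, at 669 ± 20.3 TPM in GC against 33.3 ± 9.77 TPM in naive B cells (SD, n = 3). Prdm1 was also higher in GC, at a mean of 5.01 against 0.955 TPM. Sdc1 and Xbp1 were higher in naive B cells and lost their calls when single pools were left out.

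Most partners of GCET2 in signaling and movement were expressed in both populations. Of 17 genes, Mylk was below the filter and 16 were tested, of which 6 were higher in GC, 9 were higher in naive B cells, and the median log2 difference was -0.17. Syk, the kinase that GCET2 binds, was at 309 ± 5.81 TPM in GC against 246 ± 10.03 TPM in naive B cells (SD, n = 3; log2 difference 0.33 ± 0.04 SE, adjusted p = 0.000697 in limma). The Gcet2 level was 0.911 ± 0.0282 times that of Syk in GC pools and 0.000997 ± 0.000271 times in naive pools (SD, n = 3). Grb2, an adaptor that also binds GCET2, rose by a log2 difference of 0.58 (adjusted p = 1.59e-05 in limma), and the receptor component Cd79a fell by 1.12 on the log2 scale (adjusted p = 9.89e-07 in limma).

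The guanine nucleotide exchange factors for RHOA that GCET2 contacts differed in direction. Arhgef12 was at 15.5, 14.5 and 15.4 TPM in GC and 3.52, 3.50 and 2.90 TPM in naive replicates 1, 2 and 3. It rose 4.56 times (adjusted p = 1.02e-05 in limma). Arhgef11 was at 8.45 ± 0.930 TPM in GC against 13.6 ± 1.13 TPM in naive B cells (SD, n = 3; -0.63 ± 0.11 SE, adjusted p = 0.00250 in limma). Rock2, a kinase gene downstream of RHOA, rose by a log2 difference of 0.39 (adjusted p = 0.00972 in limma). Myl12b, a regulatory light chain of nonmuscle myosin, had the largest difference of the list, with 138 ± 16.3 TPM in GC against 715 ± 8.93 TPM in naive B cells (SD, n = 3; -2.38 ± 0.08 SE, adjusted p = 1.71e-06 in limma). Myl12b and Myl12a are near-identical genes whose reads could be split between them, so their separate levels are uncertain.

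The lists of population markers were read as a description of the sorted populations. They are no independent check of the sort, since they were chosen with earlier results of these data known. Of 10 GC markers, 8 were higher in GC, Cd83 was higher in naive B cells (431 ± 25.4 against 190.4 ± 1.16 TPM, SD, n = 3; adjusted p = 4.10e-06 in limma), and Cxcr4 was not called. Among these 10, the largest differences were those of Mef2b (7.41), Nuggc (7.36) and S1pr2 (7.24). Mef2b was spread among pools, at 254 to 413 TPM in GC and 0 to 5.65 TPM in naive B cells. The protein of Fas was a gate of the sort. S1pr2, Nuggc and Rgs13 were under 1 TPM in all naive pools, so the filter fixed their direction. Mef2b also needed GC pools to pass the filter, and Ccr7, of the naive markers, needed naive pools. All 8 naive markers read here were higher in naive B cells, led by Klf2 (-5.81), Ccr7 (-5.47) and S1pr1 (-5.32), genes of lymphocyte quiescence, homing and exit from lymphoid tissue. The difference of Lmo2 (-0.83) had the same sign as that of Cd83 (-1.17) and was smaller than those of the leading naive markers.

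Mybl1 belongs to a panel of genes used to type human diffuse large B cell lymphoma as GC-like or activated-like, and the mouse orthologs of this panel were read in the same pools. Of the 6 other GC-type orthologs, S1pr2 was higher in GC B cells, with 268 ± 5.73 against 0.789 ± 0.182 TPM (SD, n = 3; log2 difference 7.24 ± 0.09 SE, adjusted p = 7.61e-08 in limma). Itpkb was not called (log2 difference 0.13, adjusted p = 0.228 in limma). Asb13 (-0.38) and Maml3 (-1.94) were higher in naive B cells (adjusted p = 0.0131 and 3.89e-05 in limma), and Maml3 was listed at 0 in 2 GC pools. Mme, which encodes CD10, reached at most 0.914 TPM, and Serpina9, also called GCET1, at most 0.0413 TPM, in any pool. Both were below the filter of the fit. Of the 4 tested orthologs beside Mybl1, S1pr2 was therefore the one called as higher in GC B cells. S1pr2 was under 1 TPM in all naive pools and Maml3 in all GC pools, so the filter fixed their directions.

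Of the 8 activated-type orthologs, 4 were higher in naive B cells, namely Irf4 (-1.76), Tnfrsf13b, Creb3l2 (-0.97) and Rab29 (-0.72), given as log2 differences. Creb3l2 was under 1 TPM in all GC pools, so the filter fixed its direction. Tnfrsf13b was at 93.7 ± 4.78 TPM in GC against 267 ± 6.21 TPM in naive B cells (SD, n = 3; adjusted p = 1.40e-06 in limma). Ccdc50 was higher in GC B cells (1.27, adjusted p = 8.24e-06 in limma). Pim2 (-0.26) and Limd1 (-0.01) were not called, and Cyb5r2 was below the filter. Of the 5 reference orthologs, R3hdm1 (0.34) and Ubxn4 (0.29) were higher in GC B cells, and Wdr55 (0.18), Isy1 (0.08) and Trim56 (0.22) were not called.

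**Figure D5:**
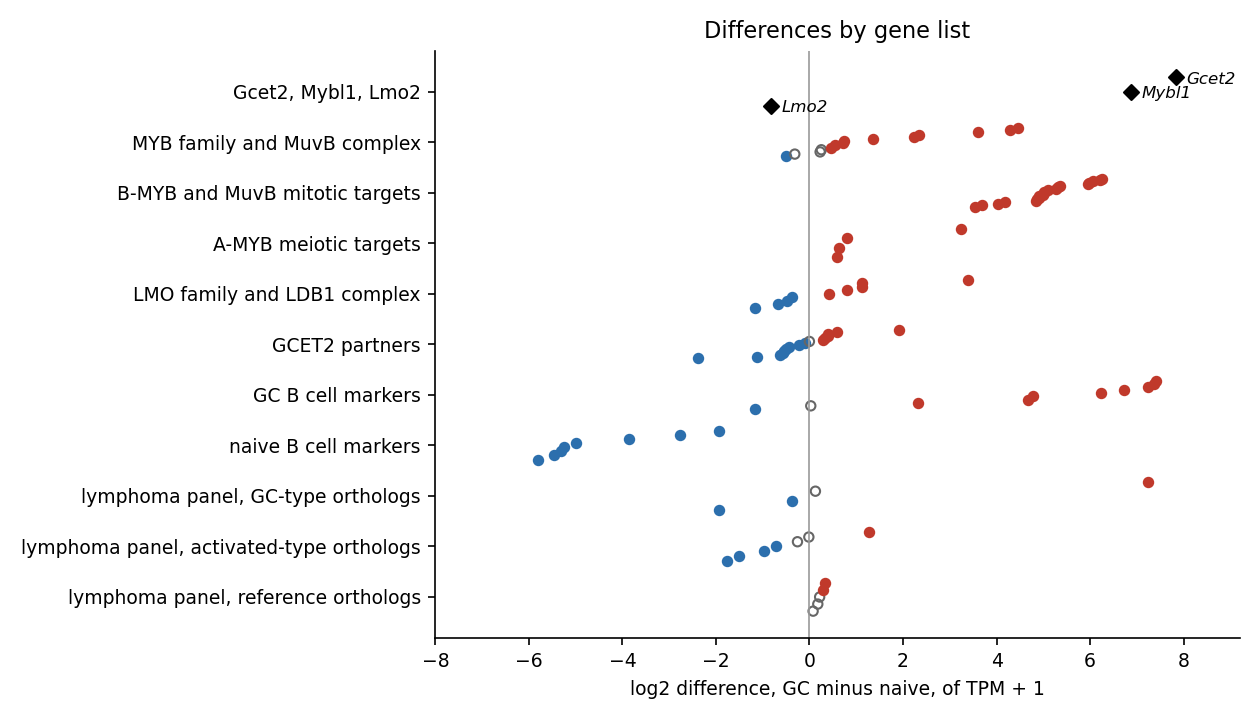
Log2 difference of TPM + 1, GC minus naive, for the 3 members (black diamonds, not tested) and for every tested gene of 10 lists; red and blue points passed the limma test as higher in GC or in naive B cells, and open points did not. Gcet2 (7.83) and Mybl1 (6.87) lie with the GC markers, and Lmo2 (-0.83) lies on the naive side.

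Genes with a pattern most like that of each member were ranked by the root mean square distance between centred log2(TPM + 1) values over the 6 pools, which measures the size of the difference as well as its shape. Among the 3 nearest to Gcet2 were the small nucleolar RNA SNORA42 (distance 0.0774) and Nuggc (0.244). SNORA42 was listed at 0 in all naive pools, and FPKM of such short RNAs are unreliable. Nearest to Mybl1 were Rgs13 (0.113), Mki67 (0.158) and Cdk1 (0.193), the last 2 being genes of dividing cells. Mki67 was at 228 ± 1.04 TPM in GC against 0.785 ± 0.107 TPM in naive B cells, and Cdk1 was at 147 ± 2.12 and 0.598 ± 0.314 TPM (SD, n = 3). Nearest to Lmo2 were Stat2 (0.0338), a transducer of interferon signals, Gtpbp6 (0.0365), a GTPase gene, and H2-Ob (0.0380), which encodes a chain of the H2-O protein that tunes MHC class II loading. H2-Ob was at 687 ± 28.2 TPM in GC against 1218 ± 54.1 TPM in naive B cells (SD, n = 3). All these distances were taken over the same 6 libraries, and a short distance is a likeness of levels alone.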

How the data were processed

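RNA-Seq of 3 GC and 3 naive pools was used. Per the labels and methods, the authors demultiplexed with CASAVA 1.8, removed adapters with cutadapt 1.9 and quantified reads with RSEM 1.2.25 on the NCBIm38 v75 transcriptome. They deposited FPKM per Ensembl gene and pool. RSEM divides reads shared by near-identical genes by its model, and FPKM depends on the assigned transcript length. TPM was FPKM over the pool total, times 1000000. Symbols named 33398 of 39179 identifiers, and 157 of 159 listed symbols matched.

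GC and naive pools were compared with limma 3.58.1 (R 4.3.3; lmFit, eBayes with a trend) on log2(TPM + 1), where the pseudocount of 1 understates differences of weak genes, for genes reaching 1 TPM in 3 or more pools, with Benjamini-Hochberg adjustment over all 12785 genes. The fit was tested on simulated data. Depth was estimated from genes with a single transcript of 250 to 900 bases, with transcript lengths of the NCBIM37 annotation. Pools, not mice, were the replicates, so p-values set each difference against the spread between pools, moderated over all genes.

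The members and lists were chosen with earlier results of these data known. Named genes are the members, their paralogs, Ldb1, Fas, the 3 called genes with the largest difference in each direction per list, all panel orthologs, and the 3 nearest patterns per member. Tdrd3, Tcf12, Syk, Bcl6, Cxcr4, some mitotic genes and cell type markers, and genes listed at 0 were named after their values were seen. So were the genes of the meiotic list below the filter. A few items are not reported here and were left out of the lists and counts. Pools with the same number were not stated to share mice. Pseudocounts, scalings, filters, the trend, a replicate block and leaving out each pool were tried. Tables and figures were made in Python 3.11.15 (numpy 2.4.6, pandas 2.3.3, matplotlib 3.10.9).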

Additional observations from a re-analysis of the deposited data

How the results depend on the processing

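Over 25 results, 366 alternatives were computed. Only the log2 differences of the 3 members could reverse a direction, and 0 did so. The other results were counts, for which no reversal was defined. Some genes that were not called did change sign, such as Cxcr4 in 4 and Limd1 in 2 of 15 alternatives. In 353, a count stayed within 1.5 times its value or a difference moved by less than the spread between pools, and 13 moved further. The log2 difference of Gcet2 became 9.69 and 10.15 with pseudocounts of 0.1 and 0.01 TPM, 7.43 with FPKM as deposited, and 7.64 under quantile normalization. That of Mybl1 became 7.71 and 7.83 with those pseudocounts and 6.61 with FPKM as deposited. That of Lmo2 became -0.96 under quantile normalization and lay between -0.96 and -0.78 in all its alternatives. Genes of the MYB and MuvB list higher in naive B cells numbered 2, with Tfdp2 added, with FPKM as deposited, under quantile normalization, with median-of-ratios scaling and without the trend. With a filter of 5 TPM, 1 GC-type panel ortholog was higher in naive B cells, since Maml3 was no longer tested. Pim2 was called, as higher in naive B cells, with FPKM as deposited, under quantile normalization and without GC replicate 3, and Wdr55 was called without naive replicate 3. Among marker genes, the calls of Pax5, Epcam, Krt20 and Vil1 were lost without GC replicate 1, that of Xbp1 without GC replicate 2 or 3, those of Krt18, Krt20 and Vil1 without GC replicate 3, and those of Sdc1, Krt20 and Vil1 without naive replicate 1. Krt20 also lost its call without naive replicate 2 or 3 and without a filter, and Lyz2 gained a call toward naive pools under quantile normalization, with the replicate block and without GC replicate 2. Rhoa, 1 of the 9 GCET2 partners higher in naive B cells, lost its call in 6 of 15 alternatives (adjusted p from 0.000844 to 0.146 in limma).

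Over all genes, between 3919 and 4734 were higher in GC and between 3261 and 4450 were higher in naive B cells. Quantile normalization gave 4080 in GC and 4450 in naive B cells, so the direction with more genes changed. A block for the replicate number gave 4342 and 3618. Deviations of same-numbered pools correlated at 0.0225 to 0.0830, and 5 of 6 pools correlated best with their own number. These correlations are weak and cannot decide whether same-numbered pools are pairs. The numbers were not taken as pairs because no sharing of mice was stated. Depth limits the naive levels of Gcet2 and Mybl1, which rest on few reads.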
